A study of Mus musculus with 12 samples.

Results

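The 33 genes described here encode proteins of skeletal muscle, smooth muscle, collagen fibres, cartilage and the connective tissue matrix, together with 3 growth-related and imprinted genes, and they were read in libraries labelled as brain microglia. They were selected on their counts in the libraries of knockout cells after recovery, where they stood out, so levels in those libraries describe the choice and are given with no test. The rule kept the listed genes with at least 10 counts in any 1 library. All 33 of 33 listed genes passed it, out of 20910 genes that did so and 55421 in the table. The lowest of them by its highest count was Actn3 with 12 counts, followed by Matn1 with 22, and no listed gene fell outside the rule. There were 13 skeletal muscle genes, 2 smooth muscle genes, 5 collagen genes, 5 cartilage genes, 5 matrix glycoprotein genes and 3 growth and imprinted genes.

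Microglia, the resident macrophages of the brain, were sorted from mice and cultured for 6 h without oxygen and glucose, a treatment called oxygen-glucose deprivation (OGD) that models ischaemia. Cells were taken at once or after a further 24 h of recovery. All mice carried the Cx3cr1EGFP reporter allele, the controls (WT) with no other change named and the knockouts (KO) with Slc2a5-/-, a deletion of the gene for a fructose transporter. The design asks how microglia without Slc2a5 differ after this insult. The 4 groups of 3 libraries are called WT-OGD and KO-OGD without recovery, WT-recovery and KO-recovery with it, from mice labelled male at P35-P40 (postnatal days 35 to 40; the extraction protocol gives days 30 to 45). No sample without OGD was analysed here. Whether replicates are separate animals or cultures is not stated, and p-values then measure only the spread between these libraries, which may be technical.

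A skeletal muscle fibre contracts by sliding actin filaments along myosin, a movement switched on by calcium through the troponin complex. Developing fibres use embryonic and perinatal myosin heavy chains that adult fibres replace, while cartilage is built on type II collagen and aggrecan, and bone, skin and tendon on type I collagen. Igf2 and H19 are an imprinted pair read strongly in fetal tissues of mesodermal origin, and microglia are not known for any of these programmes apart from some matrix genes such as Fn1.

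Total counts lay between 9885259 and 45347118 per library, with 9885259 to 19915479 in the recovery groups. The targeted gene Slc2a5 had 40 to 58 counts in the WT-OGD libraries and 4 to 17 in those of KO-OGD, but at most 2 in any recovery library, so it does not check the recovery labels. WT-recovery replicate 1 is labelled as without recovery in its treatment field and as recovery in its title, by which it was grouped, and its mitochondrial share of counts was the highest, 18.4%. Xist, a female-specific RNA of X inactivation, went against the labels, all male: it had 151 to 354 CPM (reads of a gene scaled to the TMM-adjusted total of its library, CPM) in the WT-OGD, KO-OGD and KO-recovery groups and at most 0.183 CPM in WT-recovery. KO against WT after recovery and recovery against OGD in WT therefore also compare groups that differ in Xist, and in both the part of genotype or recovery and that of the source of cells cannot be told apart. The microglial markers, 12 of 12 of them detected in every library, summed to between 3216 and 7262 CPM, and none of them was at 0 anywhere.

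The clearest feature of the 33 genes was a split inside the KO-recovery group. Replicates 1 and 3 had high levels of most of them, and replicate 2 did not. Acta1, the skeletal muscle alpha-actin gene (chromosome 8, 123891769 to 123894751, GRCm38), had 759, 12 and 680 counts in KO-recovery replicates 1, 2 and 3, and at most 8 in any of the other 9 libraries. Its promoter is printed with those of Myh3 and Myh8, the embryonic and perinatal myosin heavy chain genes that share its pattern, because the E-box, CANNTG, is the site class bound by the muscle-determining factors of the MyoD family. The sequences are RefSeq's for GRCm38.p6, the 250 bases before the start used there, read 5′ to 3′ on the gene's own strand, with E-boxes in capitals. For Acta1 that start lies upstream of the gene's start by the coordinates given above. Acta1 lies on the minus strand (chr8:123894776-123895025), and Myh3 and Myh8 on the plus strand (chr11:67078050-67078299 and chr11:67276874-67277123).
Acta1: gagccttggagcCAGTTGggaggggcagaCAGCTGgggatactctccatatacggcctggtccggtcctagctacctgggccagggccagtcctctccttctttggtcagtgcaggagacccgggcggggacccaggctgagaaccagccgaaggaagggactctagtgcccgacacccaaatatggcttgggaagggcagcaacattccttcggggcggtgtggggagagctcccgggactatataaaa
Myh3: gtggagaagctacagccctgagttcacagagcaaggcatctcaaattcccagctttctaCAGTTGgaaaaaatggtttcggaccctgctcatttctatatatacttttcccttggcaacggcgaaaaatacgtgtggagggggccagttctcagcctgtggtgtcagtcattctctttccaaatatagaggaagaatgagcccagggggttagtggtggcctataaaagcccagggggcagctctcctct
Myh8: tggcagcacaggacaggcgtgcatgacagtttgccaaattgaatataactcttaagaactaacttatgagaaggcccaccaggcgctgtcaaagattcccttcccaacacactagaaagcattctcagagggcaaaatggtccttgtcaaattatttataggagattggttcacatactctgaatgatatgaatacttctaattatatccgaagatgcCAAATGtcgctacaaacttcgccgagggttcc
In Acta1 the E-boxes begin at positions -238 and -221 from the start used for the sequences, in Myh3 at -191 and in Myh8 at -32. Promoters in that table matched 23 of the 33 genes by symbol, and the first one listed was used for each. An E-box, searched on both strands, where it reads the same, was found in 10 of the 10 skeletal muscle promoters matched, in 17 of all 23, and in 66.0% of 27025 promoters of this length. The letters TATAAA, on either strand, were in 5 of the 10 skeletal muscle promoters (Acta1, Myh3, Myh8, Myl1 and Tnnt1) and in 13.0% of all promoters. A CArG box, the site class of serum response factor, was matched in Acta1 alone of the 23 against 1.40% of all promoters, and a MEF2 motif in Myh8 alone against 3.01%. A match describes letters and not binding, and the shares were not tested against each other.

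**Figure D1:**
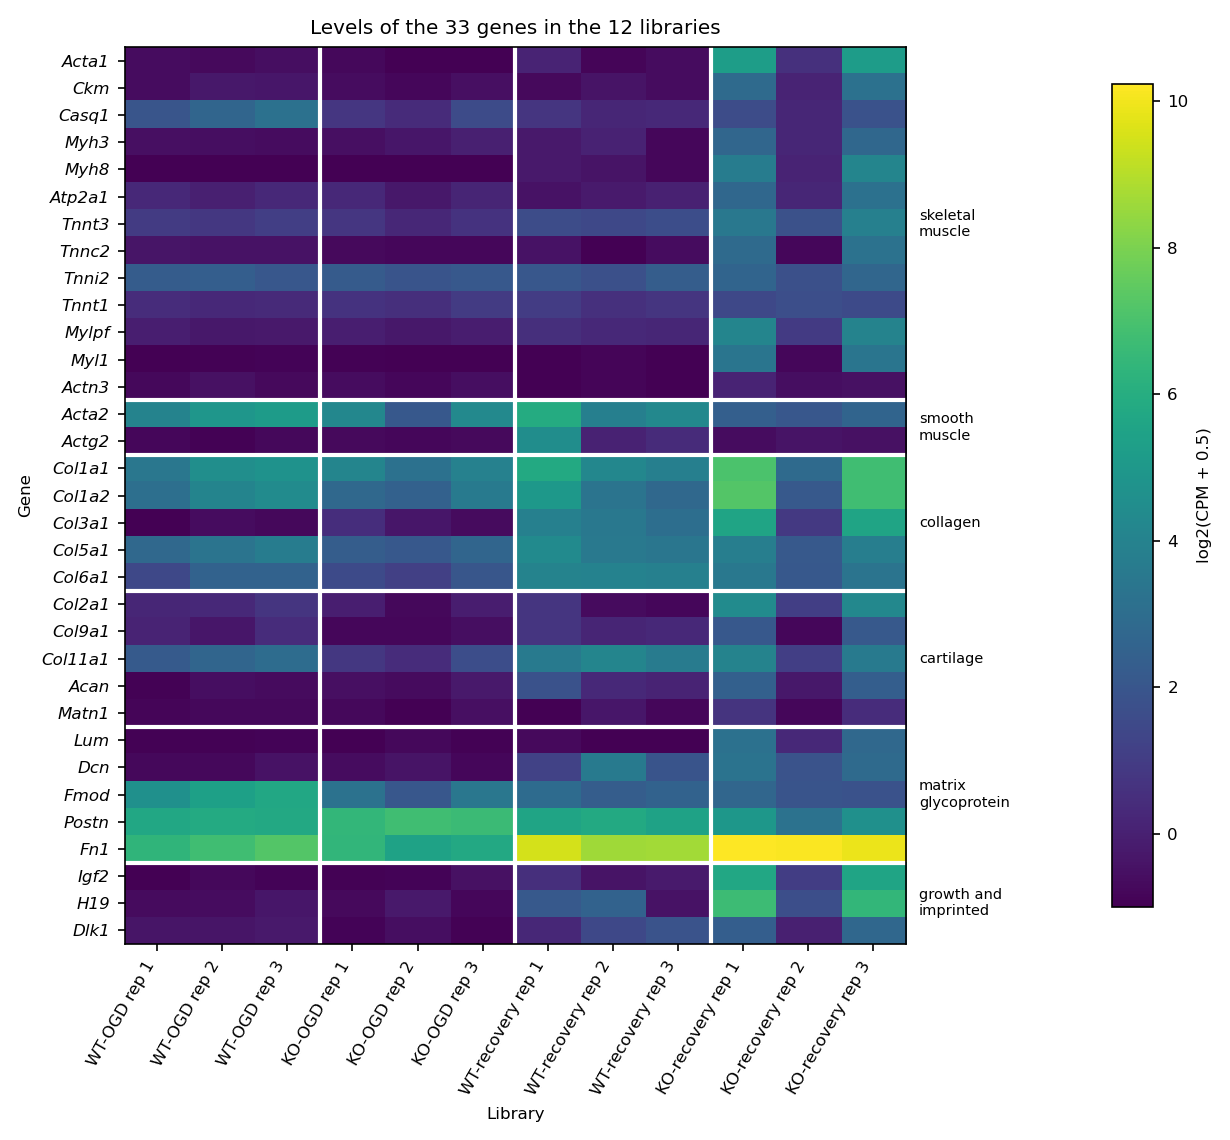
Level of each of the 33 genes (rows, by class) in each of the 12 libraries (columns, 3 per group), as log2(CPM + 0.5). Acta1 reached 37.6 and 36.4 CPM in KO-recovery replicates 1 and 3 and stayed at or below 0.980 CPM in the other 10 libraries, while Fmod was highest in WT-OGD, at 24.8 to 53.4 CPM, and Fn1 was high in both recovery groups.

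Among genes of the thin filament and its switch, Tnnc2, fast troponin C, had 140, 1 and 164 counts in KO-recovery replicates 1, 2 and 3 and at most 11 elsewhere. Tnnt3, fast troponin T, was read in every library, at 0.690 to 2.66 CPM outside KO-recovery, and had 10.9, 2.94 and 14.3 CPM within it. Tnni2, fast troponin I, differed less between libraries: it had 2.81 to 4.57 CPM outside KO-recovery and 5.60, 2.86 and 6.00 CPM within it. Tnnt1, the slow troponin T gene, was the exception of the muscle genes, with 2.23, 2.78 and 2.36 CPM in KO-recovery, so that replicate 2 was not below the others. The troponin genes thus ranged from Tnnc2, with few counts outside 2 libraries, to Tnni2 and Tnnt1, read in all 12. Tnni2 and Tnnt3 lie 54.4 kb apart on chromosome 7 (the pair spans 142441808 to 142516009).

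Myosin genes of developing muscle carried the split, and those of adult fast fibres were at trace counts. Myh8 had 256, 7 and 315 counts in KO-recovery, 3, 4 and 1 in WT-recovery and 0 in all 6 OGD libraries. Myh3 had 121, 8 and 115 counts in KO-recovery and 1 to 18 elsewhere. Their neighbours on chromosome 11, Myh1, Myh2 and Myh4, which encode the adult fast myosins, reached at most 11, 3 and 3 counts in any library. The fast light chain gene Mylpf had 16.8, 1.39 and 15.8 CPM in KO-recovery against 0.325 to 0.913 CPM elsewhere. Myl1, another fast light chain gene, had 196, 1 and 184 counts there and 1 count in all 3 WT-recovery libraries together. Of the 50-base stretches of their transcripts, 12.1% in Myh8, 11.7% in Myl1 and 4.76% in Myh3 occur in transcripts of other genes, so a small part of these counts may belong to copies.

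Genes of calcium handling and energy supply behaved in 2 ways. Atp2a1, the calcium pump of fast fibres, had 6.20, 0.653 and 8.51 CPM in KO-recovery replicates 1, 2 and 3 and at most 0.732 CPM elsewhere. Ckm, the muscle creatine kinase, had 6.79, 0.572 and 8.73 CPM there and at most 0.325 CPM elsewhere. Casq1, the calcium-binding protein of the fast-fibre store, had its highest levels outside KO-recovery, 3.34, 5.81 and 8.50 CPM in WT-OGD, against 2.53, 0.653 and 3.11 CPM in KO-recovery. Actn3, the alpha-actinin of fast fibres, stayed low everywhere, with 12, 2 and 4 counts in KO-recovery and at most 7 elsewhere. Exons of Ckm, Casq1, Atp2a1 and Tnnc2 overlap a gene on the other strand, and since the use of strand in counting is not given in the sources used here, reads of the partners may be included.

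Collagen genes were read in every group, and 3 of the 5 were highest in the same 2 libraries. Col1a1 and Col1a2 encode the chains of type I collagen. Col1a1 had 133, 6.94 and 109 CPM in KO-recovery replicates 1, 2 and 3, and 8.58 to 56.2 CPM in the other groups. Col1a2 had 150, 3.84 and 108 CPM there and 5.06 to 31.2 CPM elsewhere, so replicate 2 was below every other library for both genes. Col3a1, the fibrillar collagen of soft tissues, had 46.3, 1.31 and 47.4 CPM in KO-recovery, 14.3, 10.9 and 7.91 CPM in WT-recovery and at most 0.876 CPM after OGD. Col5a1 and Col6a1, genes of minor fibril and of microfibril collagens, had 13.3, 3.84 and 13.3 CPM and 10.9, 3.76 and 9.42 CPM in KO-recovery. In replicates 1 and 3 both were above every OGD library but did not exceed the highest WT-recovery library. Col6a1 was below all of WT-recovery.

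The cartilage genes followed. Col2a1, the main collagen of cartilage, had 20.9, 1.63 and 18.7 CPM in KO-recovery and at most 1.14 CPM in any other library. Acan, the gene of the cartilage proteoglycan aggrecan, had 4.91, 0.327 and 4.60 CPM there and up to 3.08 CPM in WT-recovery. Col9a1, which encodes a collagen on the surface of type II fibrils, had 76, 1 and 74 counts in KO-recovery and at most 41 elsewhere. Matn1, the cartilage matrilin gene, had 22, 1 and 16 counts and at most 7 elsewhere, and Col11a1, a fibril collagen gene also read outside cartilage, had 317, 20 and 224 counts and reached 357 in WT-OGD and 272 in WT-recovery. Col2a1 was thus the cartilage gene whose level in replicates 1 and 3 lay farthest above all other groups.

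Matrix glycoprotein genes differed most among themselves. Lum, the proteoglycan gene of corneal and other collagen-rich tissue, had 8.68, 0.735 and 6.43 CPM in KO-recovery and at most 0.114 CPM elsewhere. Its neighbour Dcn on chromosome 10 (the pair spans 97479609 to 97572703), the decorin gene, had 9.32, 3.18 and 6.91 CPM in KO-recovery but also 1.83, 11.5 and 3.25 CPM in WT-recovery, so the groups overlapped. Fmod, the fibromodulin gene (chromosome 1, 134037254 to 134048277), had 6.10, 3.27 and 3.11 CPM in KO-recovery so that replicates 2 and 3 were alike. Fn1, the fibronectin gene, was the most abundant member per kb of exon in every recovery library, with 103, 99.6 and 83.0 CPM per kb in KO-recovery and 62.7, 34.0 and 34.5 CPM per kb in WT-recovery. Postn, the periostin gene, was lower in KO-recovery (30.7, 8.82 and 24.0 CPM) than in every other library, where it had 43.5 to 109 CPM.

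Both imprinted genes of chromosome 7 had the split. H19, a non-coding RNA, had 102, 2.78 and 86.5 CPM in KO-recovery replicates 1, 2 and 3, 3.88, 5.25 and 0.222 CPM in WT-recovery and at most 0.361 CPM after OGD. Igf2, the fetal growth factor gene 72.6 kb away, had 53.3, 1.55 and 47.2 CPM in KO-recovery and at most 0.913 CPM elsewhere. It shares 61.2% of its 50-base stretches with other annotated genes, mostly with the overlapping Gm49394, so its level depends on how reads over both were counted. Dlk1, which encodes a Notch-like protein of fetal tissues, had 4.61, 0.490 and 6.26 CPM there and up to 3.18 CPM in WT-recovery.

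The 2 smooth muscle genes among the 33 had no such split. Acta2, the smooth muscle alpha-actin gene, had 4.86, 3.59 and 5.57 CPM in KO-recovery and 14.0 to 58.9 CPM in WT-recovery, with no overlap of the groups. Actg2, the gamma-actin gene of gut smooth muscle, had 22.3, 0.549 and 0.814 CPM in WT-recovery and at most 0.245 CPM in any other library, so its level in that group is that of replicate 1. In that same library Acta2 had 58.9 CPM against 14.0 and 18.5 CPM in replicates 2 and 3, and Cnn1, the calponin gene of smooth muscle, had 5.48 CPM against 0.610 and 0.740 CPM. That library is the one with the conflicting label and the high mitochondrial share. Of 8 other smooth muscle and mural cell genes with at least 10 counts in some KO-recovery library, 3 were at least 5-fold higher in both replicates 1 and 3 than in replicate 2. These were genes of pericytes, the mural cells of small vessels: Rgs5 had 60, 0 and 27 counts, Pdgfrb 40, 2 and 29 and Abcc9 12, 1 and 19.

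The split can be put as a ratio between libraries of the one group. Of the 32 genes with at least 10 counts in some KO-recovery library (all but Actg2), 20 were at least 5-fold higher in both replicates 1 and 3 than in replicate 2, and 15 at least 10-fold. Over all 17863 genes with that count there, 2.37% met the first rule and 1.69% the second. These ratios are the values by which the genes were noticed, so nothing is read from the difference. The lowest ratios were those of Tnnt1 (0.804 and 0.849) and Fn1 (1.03 and 0.834). The exact 95% binomial intervals drawn with them cover counting error only, as the reads carry no molecular identifiers, and not the spread between libraries.

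Replicates 1 and 3 were close to each other in most of these 32 genes, but not over the whole table. Over all genes compared, chi-square per degree of freedom was 11.1 for replicates 1 and 2, 44.7 for 1 and 3 and 56.7 for 2 and 3. Among the 23 of the 32 genes with at least 100 counts in both, the ratio of replicate 1 to replicate 3 ran from 0.728 (Atp2a1) to 1.38 (Col1a2). The median over all 32 was 1.05, and the counting interval held 1 for 16 of them. Fmod, with 58 counts in replicate 3, had 1.96. Skeletal muscle genes lay on the lower side, with a median of 0.934 over 13 genes, and matrix glycoproteins on the higher, 1.35 over 5. The difference between these classes was not tested.

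**Figure D2:**
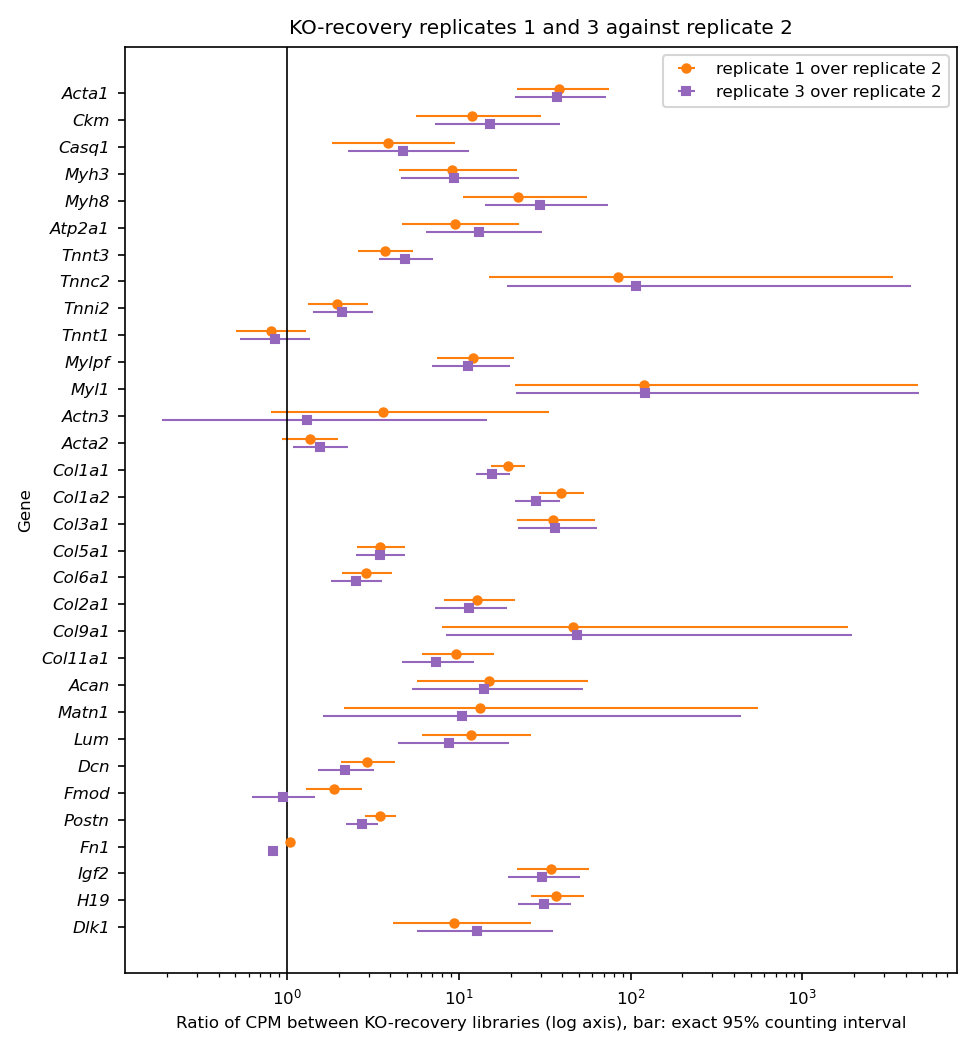
Ratio of CPM in KO-recovery replicate 1 (circles) and replicate 3 (squares) to replicate 2 for the 32 genes with at least 10 counts in that group, on a log axis, with exact 95% counting intervals. Acta1 lay at 38.4 and 37.2, Col1a2 at 39.1 and 28.3, and Tnnt1 at 0.804 and 0.849, and wide bars belong to genes with 1 count in replicate 2.

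Taken as shares of all counts, the 33 genes held 0.197%, 0.112% and 0.168% in KO-recovery replicates 1, 2 and 3. Fn1 and Postn made up most of this. Without those 2 genes the shares were 0.0724%, 0.00490% and 0.0650%, against 0.0117% to 0.0232% in WT-recovery and 0.00345% to 0.0192% after OGD, so replicate 2 lay within the range of the OGD libraries.

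Whether KO cells after recovery appeared higher or lower than WT cells turned on which of these libraries entered. With all 3, the fitted log2 fold change of KO over WT was above 0 for 22 of the 29 genes that passed the low-count filter, with a median of 1.56 against 0.01 for all 18842 genes tested. With replicate 2 alone it was above 0 for 12 of the 29 and the median of these was -0.34. The sign turned for 10 genes, among them Col1a1 (1.58 to -2.02), Col1a2 (2.59 to -1.94), Col3a1 (1.56 to -3.06), Col9a1 (1.78 to -3.21) and H19 (4.36 to -0.17). It did not turn for Lum (7.47 to 4.59), Acta1 (6.89 to 2.16), Col2a1 (5.32 to 2.20) and Igf2 (6.26 to 1.75), whose value fell, nor for Fn1 (1.12 and 1.19) and Tnnt1 (1.04 and 1.23), whose value did not. Acta2 (-2.63 and -3.02) and Postn (-1.17 and -2.48) were lower in KO either way. Actg2 went from -5.20 to -1.76 when WT-recovery replicate 1 was left out. No p is given, as the genes were chosen in these libraries.

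In that contrast 14 of the 33 genes had all 3 KO-recovery libraries above all 3 WT-recovery libraries and 4 had them all below, against 16.4% and 17.2% of all genes tested. Those shares are of the 18842 genes that passed the low-count filter, while the 33 include Tnnc2, Myl1, Actn3 and Matn1, which did not. The genes were noticed in these libraries, so nothing is read from the difference. The 14 were Acta1, Ckm, Myh3, Myh8, Atp2a1, Tnnt3, Tnnt1, Mylpf, Myl1, Actn3, Col2a1, Lum, Fn1 and Igf2, and the 4 were Acta2, Actg2, Col6a1 and Postn. Replicate 2 thus lay above WT-recovery for 10 of the 13 skeletal muscle genes, at low levels: Acta1 had 0.980 CPM there and 0.0610 to 0.571 CPM in WT-recovery, and Ckm 0.572 CPM against 0.114 to 0.244 CPM. These are counts of 12 and 7 in replicate 2, while Myl1 and Actn3 had 1 and 2 counts there and 1 each over WT-recovery. For the collagen and cartilage genes other than Col2a1 replicate 2 lay within or below WT-recovery.

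**Figure D3:**
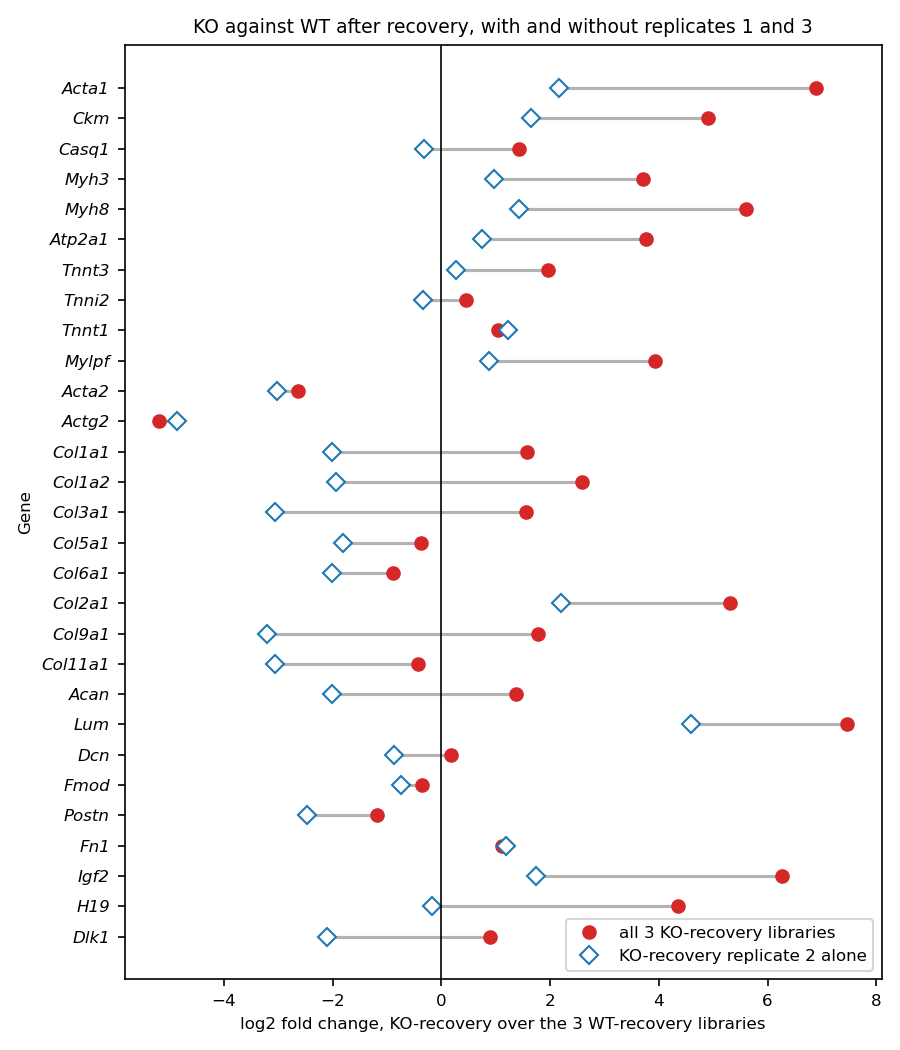
Fitted log2 fold change of KO over WT after recovery for the 29 genes in the fit, with all 3 KO-recovery libraries (filled circles) and with replicate 2 alone (open diamonds), joined per gene. The median moved from 1.56 to -0.34, and Fn1, Tnnt1 and Acta2 are among the genes whose pair of points lie close together.

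Related genes that are not among the 33 were read from lists for each tissue. Of 30 other genes of the sarcomere and of muscle metabolism, 24 had at least 10 counts in some KO-recovery library, and 16 of these were at least 5-fold higher in both replicates 1 and 3 than in replicate 2. Mybpc1, a myosin-binding protein gene, had 179, 4 and 229 counts and Ttn, the titin gene, 184, 5 and 204. Nrap (11.0, 10.8 and 10.3 CPM), a gene of the actin anchor of muscle ends, and Cox6a2 (0.446, 0.572 and 0.482 CPM), a muscle respiratory subunit gene, had no split. Genes that set up muscle cells had few counts. The 13 myogenic regulators and fusion genes summed to 2.03, 0.490 and 3.16 CPM in KO-recovery replicates 1, 2 and 3, with 2, 11 and 1 of them at 0, so replicate 2 was again the low one. In the other groups the sum was 0.0986 to 1.18 CPM, with 7 to 12 at 0. Of these 13, Pax3 (10, 5 and 15 counts) and Chrna1 (4, 0 and 13) reached 10 counts in a KO-recovery library. Mymk, a gene of muscle cell fusion, had 9, 1 and 8 counts and Myog, the myogenin gene, 7, 0 and 4, and both were at 0 in WT-recovery.

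Of the 4 heart genes with at least 10 counts in KO-recovery, 1 was at least 5-fold higher in both replicates 1 and 3 than in replicate 2. This was Actc1, the cardiac alpha-actin gene, which is also read in developing skeletal muscle, and it had 175, 1 and 172 counts in KO-recovery and 0 in all other libraries. Tnni3 and Mybpc3, cardiac troponin I and myosin-binding protein genes, were read at 10.1, 12.1 and 7.34 CPM and at 2.92, 3.51 and 3.53 CPM, without a split. Of the cartilage genes outside the 33, Col10a1, the collagen of hypertrophic cartilage, had 129, 3 and 81 counts and at most 8 elsewhere, while Sox6, a chondrocyte factor gene also read in oligodendrocyte precursors, had 3.12, 2.69 and 1.61 CPM. Ibsp, the bone sialoprotein gene, had 410, 4 and 267 counts in KO-recovery and 0 elsewhere. Alpl, the alkaline phosphatase gene of bone, had 69, 1 and 55 counts, whereas Mmp13, a collagenase gene, was high in all 3 (1114, 1163 and 779 CPM). Of 12 other cartilage genes with at least 10 counts in KO-recovery 4 met the same 5-fold rule, and of 7 bone genes 5. So did 11 of 19 other fibroblast and connective tissue genes and 7 of 17 fetal and imprinted genes, against 2.37% of all genes. The lists were chosen with earlier results known, so nothing is read from the difference.

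Skin and epithelial keratins moved with the same libraries at lower counts. Krt5, a keratin of basal epidermis, had 65, 0 and 48 counts and at most 1 elsewhere. The 10 genes of that list summed to 12.5, 0.735 and 7.55 CPM in KO-recovery and to 0.296 to 0.916 CPM in the other 9 libraries, with 8 of them at 0 in replicate 2 and none at 0 in replicates 1 and 3. Adult globins differed between replicates 1 and 3: Hbb-bs had 143, 0 and 31 counts and Hbb-bt 35, 0 and 4, and the embryonic globins were not read in KO-recovery. Ttr, made by liver and choroid plexus, was high in replicate 1 only, with 308, 1 and 7 counts. Fat genes were at or near 0, with a sum of at most 0.321 CPM in KO-recovery. The part of other tissues in the levels of the 33 genes was not tested, and in bulk RNA more cells of a type and more RNA per cell cannot be told apart.

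Of the brain cell markers with at least 10 counts in some KO-recovery library, 0 of 12 microglial, 0 of 7 astrocyte and 0 of 7 oligodendrocyte genes were at least 5-fold higher in both replicates 1 and 3 than in replicate 2. The 12 microglial markers summed to 6278, 7262 and 5824 CPM in KO-recovery replicates 1, 2 and 3, and the 8 astrocyte markers to 82.4, 88.2 and 53.2 CPM. Neuronal genes shared the split in part. The 10 of them summed to 26.9, 10.2 and 26.7 CPM, and 2 of 10 met the 5-fold rule, against the 2.37% of all genes: Dcx, a gene of young neurons, with 95, 5 and 63 counts and Nefm, a neurofilament gene, with 49, 4 and 69. Among 7 endothelial genes Cdh5 alone met it, with 37, 4 and 41 counts. Their part in the levels of the 33 genes was not tested.

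**Figure D4:**
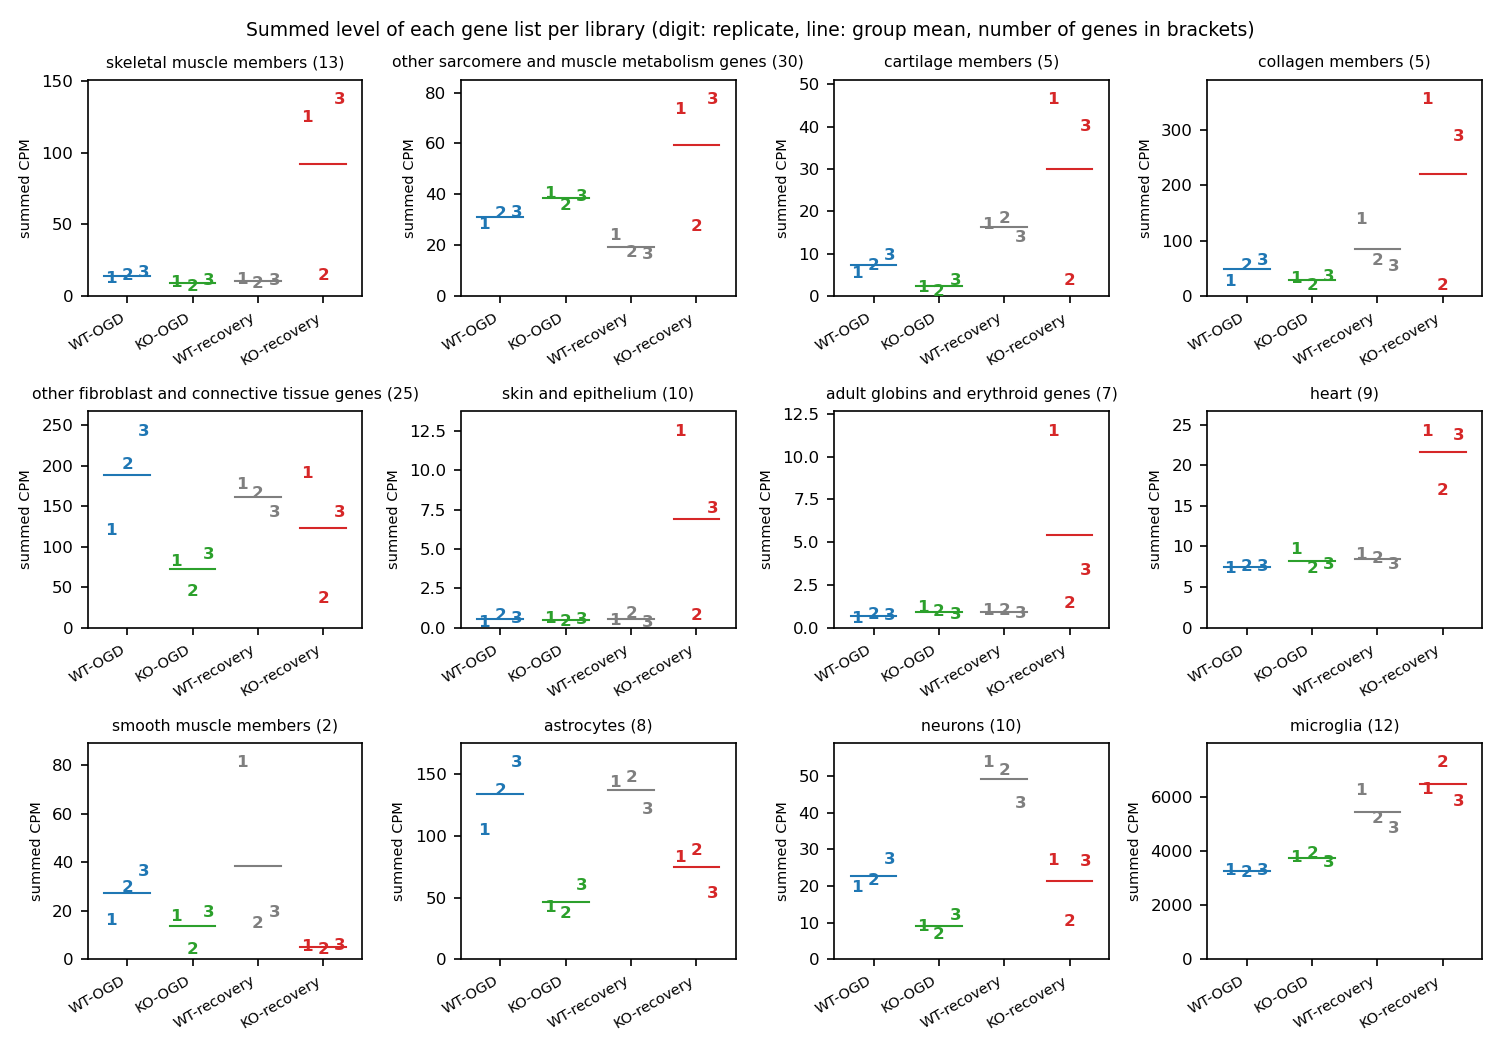
Summed CPM of 12 gene lists in each library, with the digit giving the replicate, the line the group mean and the number in brackets the genes summed, on axes from 0. Skeletal muscle, cartilage and collagen genes were high in KO-recovery replicates 1 and 3 and low in replicate 2, skin genes likewise, and the smooth muscle pair peaked in WT-recovery replicate 1 at 81.2 CPM.

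Likeness of pattern was measured by Pearson's r of log2(CPM + 0.5) with Acta1 over the 12 libraries, which share the split of 1 group. It is a description with no p. Of the 33 genes, Acta1 included, 12 had an r of at least 0.95 and 13 of at least 0.9, against 32 and 52 of 15682 other genes with at least 50 counts in some library. The 33 were noticed by that same split and were not held to the rule of 50 counts, so nothing is read from the difference. Mylpf (0.99), Myh8 (0.99) and Igf2 (0.99) were the most alike, and Postn (-0.53), Acta2 (-0.49) and Fmod (-0.37) the least. The 15 other genes most alike were Gm49394, Aspn, Ibsp, Casq2, Capn6, Bpifb9b, Actc1, Ugt2a2, Gm43638, Gpc3, Ugt2a1, A530058N18Rik, Krt13, Mybpc1 and Wif1, with r between 0.98 and 0.99. Gm49394 overlaps Igf2. Ugt2a1 and Ugt2a2 encode glucuronosyltransferases of the olfactory lining and Krt13 is a keratin of moist epithelia.

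The comparisons of KO with WT after OGD and of recovery with OGD in WT hold no KO-recovery library in either arm and were tested. Both comparisons use the WT-OGD libraries. The fit took each gene's spread from all 12 libraries, KO-recovery included, in which the members were noticed. Members could also pass the low-count filter through their KO-recovery counts. The calls are therefore not free of that choice. Of the 29 genes fitted, KO against WT after OGD called 2 lower and 0 higher by edgeR's quasi-likelihood test. The threshold was a Benjamini-Hochberg adjusted p below 0.05 over all 18842 genes. An unadjusted p below 0.05 was found for 8 of the 29 and for 3394 of the 18842 genes. DESeq2 called 3 members, all lower, and 9.28% of all the genes it tested. Over all genes tested edgeR called 7.49%, 0.966% higher and 6.52% lower. Nothing is read from the members' share beside this, as the spread and filter of the fit include KO-recovery. In the 6 libraries compared alone, 6 members were called, while 10.4% of all genes were. In the main fit the members' median log2 fold change was -0.55 and that of all genes -0.01.

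Fmod had 24.8, 40.8 and 53.4 CPM in WT-OGD and 8.90, 3.61 and 10.6 CPM in KO-OGD, and the groups did not overlap. It fell from 39.6 ± 14.3 to 7.71 ± 3.65 CPM (SD, n = 3), a log2 fold change of -2.35 with an SE of 0.41 and an adjusted p of 0.00797 by edgeR. Casq1 had 3.34, 5.81 and 8.50 CPM in WT-OGD and 1.23, 0.821 and 2.46 CPM in KO-OGD, again without overlap. The mean went from 5.89 ± 2.58 to 1.50 ± 0.854 CPM (SD, n = 3), with a log2 fold change of -1.96 (SE 0.46) and an edgeR adjusted p of 0.0242. Leaving out WT-OGD replicate 2 ended the call (adjusted p = 0.0732), as did leaving out WT-OGD replicate 3 (0.116), KO-OGD replicate 1 (0.117) or KO-OGD replicate 2 (0.0999).

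Several cartilage and fibril collagen genes had lower means in KO-OGD without being called. Not all did: the log2 fold change was above 0 for 1 of 4 cartilage genes fitted, Acan (1.07). It was also above 0 for 1 of 5 collagen genes, Col3a1 (2.575), and neither gene was called. Col11a1 had 4.00, 5.87 and 7.42 CPM in WT-OGD and 1.25, 0.854 and 2.63 CPM in KO-OGD (log2 fold change -1.86, edgeR adjusted p = 0.161), and Col9a1 had 24, 10 and 41 counts against 3, 2 and 6 (-2.50, adjusted p = 0.170). Postn went the other way, with 53.2, 58.7 and 54.0 CPM in WT-OGD and 85.6, 109 and 99.9 CPM in KO-OGD (0.83, adjusted p = 0.159). For Col11a1, Col9a1 and Postn the groups did not overlap. Of the 33 genes, 10 lay wholly lower and 2 wholly higher in KO-OGD. The share of all genes that did so was not counted, so nothing is read from the lack of overlap. Without the 3 KO-recovery libraries, a fit of 19010 genes, 5 of the members were called, Col11a1, Col9a1, Fmod and Casq1 lower and Postn higher, while 9.46% of all genes were. Genes of the KO-recovery split such as Acta1 and Myh8 were barely read here: Acta1 had 4 to 8 counts in the WT-OGD libraries against 4, 0 and 0 in those of KO, and Myh8 had none in either.

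Markers of other brain cells moved in the same comparison. All 8 of 8 astrocyte genes were called lower in KO-OGD, with sums of 104 to 160 CPM in WT-OGD and 36.9 to 59.4 CPM in KO-OGD. No astrocyte gene was at 0 in any library. Of 8 meningeal fibroblast genes fitted, 2 were called lower, Igfbp2 and Cemip, and 3 had a log2 fold change above 0. Igfbp2, an insulin-like growth factor binding protein gene, had 177 to 361 CPM in WT-OGD and 30.3 to 72.4 CPM in KO-OGD and made up most of that list's sum (195 to 395 CPM and 37.3 to 83.3 CPM). Their part in the Fmod and Casq1 results was not tested.

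Recovery against OGD in WT called 9 of the 29 genes, 7 higher and 2 lower, in a comparison in which 56.8% of all genes were called, 26.9% higher and 29.9% lower. Nothing is read from the members' share beside this either, as the spread and filter of the fit include KO-recovery. Their median log2 fold change was 0.63, unchanged with Myh8, which had no count in WT-OGD, set at its lower bound of at least 8.48-fold, and that of all genes was -0.03. Markers of other cells moved in this comparison too. All 8 of 8 oligodendrocyte lineage genes were called higher in WT-recovery, with sums of 52.3 to 53.2 CPM in WT-OGD and 175 to 223 CPM in WT-recovery. Of 10 neuronal genes 8 were called higher and 1 lower, with sums of 19.6 to 27.3 CPM and 42.5 to 53.8 CPM. Of 8 meningeal fibroblast genes fitted 3 were called higher and 2 lower, and their sum went from 195 to 395 CPM to 33.8 to 56.1 CPM, most of it Igfbp2 in WT-OGD. The part of these cells in the members' results was not tested.

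Of the genes called higher, 3 belong to the interstitial matrix and were high in all 3 WT-recovery libraries. Fn1 had 81.3, 109 and 150 CPM in WT-OGD and 732, 397 and 403 CPM in WT-recovery (log2 fold change 2.17, SE 0.33, edgeR adjusted p = 3.08e-04). Col6a1 had 2.24, 5.22 and 5.32 CPM and then 15.5, 15.3 and 14.5 CPM (1.82, SE 0.39, adjusted p = 0.00181). Col3a1 had 0, 5 and 4 counts and then 125, 179 and 107, a rise from 0.0769 ± 0.0740 to 11.0 ± 3.18 CPM (SD, n = 3; 7.12, SE 1.58, adjusted p = 0.00439). The groups did not overlap for any of them.

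Dcn, Dlk1, Acan and Actg2 also rose, with more spread between libraries. Dcn had at most 0.229 CPM in WT-OGD and 1.83, 11.5 and 3.25 CPM in WT-recovery (log2 fold change 5.28, edgeR adjusted p = 1.74e-04). Dlk1 had 0.266 to 0.353 CPM and then 0.685, 2.20 and 3.18 CPM (2.80, adjusted p = 0.00747). For Acan the levels were 0.0244 to 0.177 CPM and then 3.08, 0.732 and 0.592 CPM (3.57, adjusted p = 0.0139). That call was lost without WT-recovery replicate 1 (2.60, adjusted p = 0.0756). Actg2, with 195, 9 and 11 counts in WT-recovery, had a log2 fold change of 6.73 (adjusted p = 0.00480). It was 3.29 without replicate 1 (adjusted p = 2.72e-04) and was not called in the 6 libraries alone (adjusted p = 0.0631). DESeq2 gave no adjusted p for Actg2, and the other 8 genes called here were also called by DESeq2.

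Casq1 and Fmod, the pair lower in KO after OGD against the same WT-OGD libraries, fell on recovery. Casq1 had 1.14, 0.671 and 0.740 CPM in WT-recovery (log2 fold change -2.85, SE 0.59, edgeR adjusted p = 0.00139) and Fmod 7.08, 4.46 and 5.33 CPM (-2.86, SE 0.46, adjusted p = 4.78e-04). No other skeletal muscle gene was called: Tnnt1 had 0.708 to 0.829 CPM in WT-OGD and 0.977 to 1.48 CPM in WT-recovery (0.63, adjusted p = 0.0628), and Acta1 0.118 to 0.166 CPM and 0.0610 to 0.571 CPM (0.51, adjusted p = 0.889). Without the KO-recovery libraries 13 of the members were called, the same 9 with Col11a1, Mylpf, Tnnt3 and H19 higher, while 59.2% of all genes were.

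**Figure D5:**
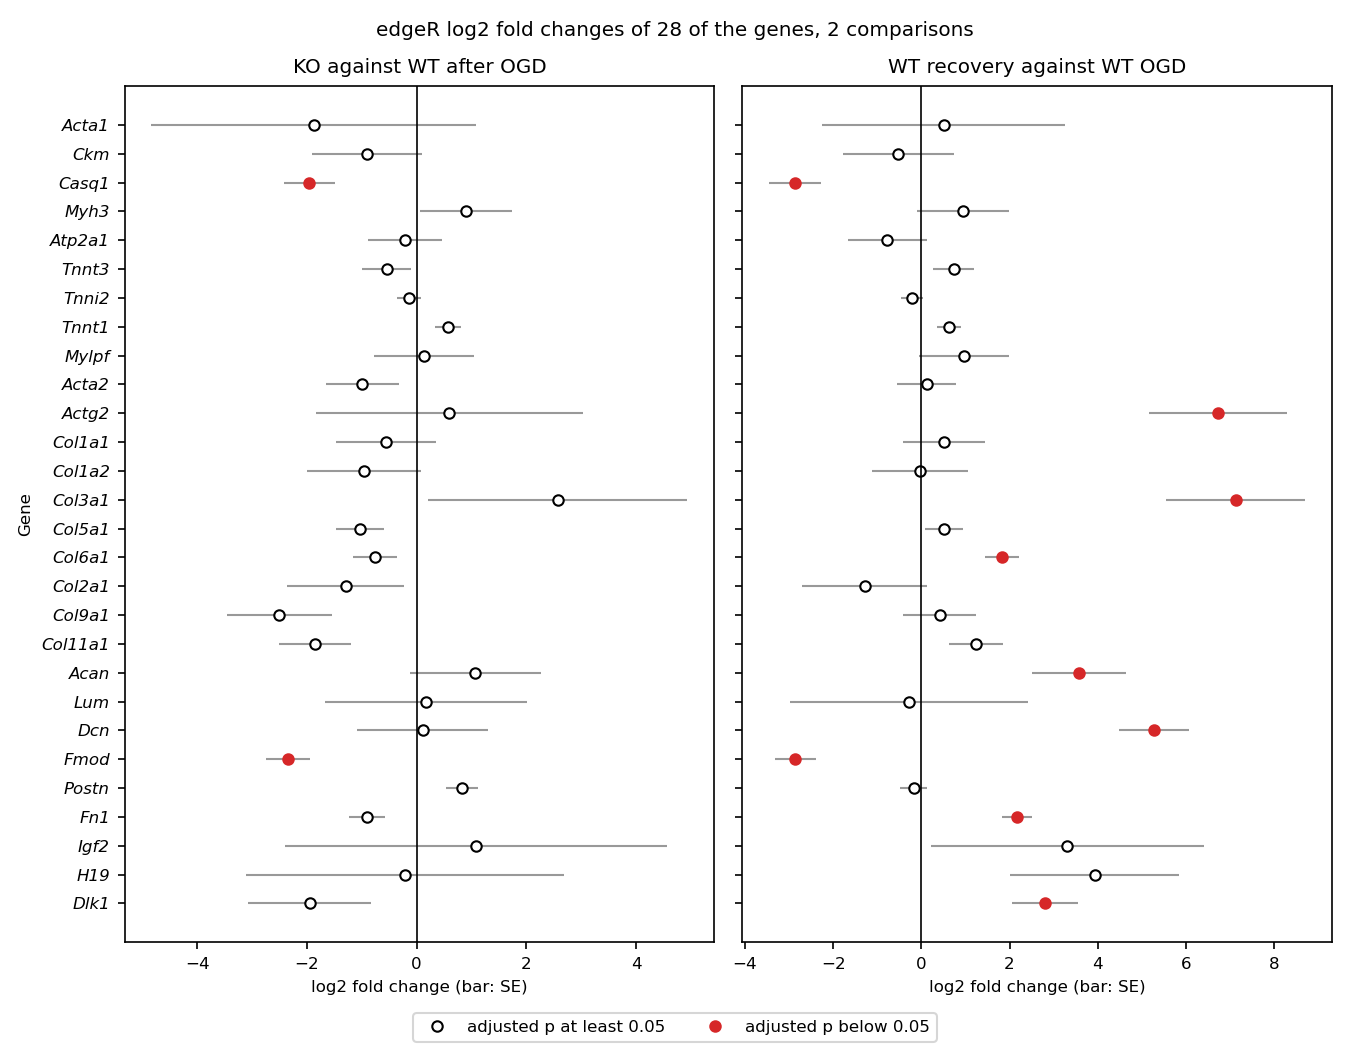
Log2 fold change with its SE for 28 genes in KO against WT after OGD (left) and WT recovery against WT OGD (right), filled where the adjusted p of edgeR's quasi-likelihood test was below 0.05. Myh8, with no counts in WT-OGD, is left out. Fmod (-2.35 and -2.86) and Casq1 (-1.96 and -2.85) are the genes called lower in both panels, which share the WT-OGD libraries.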

How the data were processed

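Per the labels' protocols, libraries of sorted microglia were made with a stranded total RNA kit (the molecule field names polyA RNA). Values are the raw counts the authors deposited, 1 per gene and library for 12 libraries, made with HISAT2, featureCounts and GRCm38, per the submitters' processing notes. Versions, annotation release and counting options are not given in the sources used here, so overlapping, antisense and near-identical genes are uncertain. Of 55421 identifiers, 55240 matched GENCODE M21 (version ignored). The members and lists were chosen with earlier results of these data known. A gene of the muscle regulator list is not reported here.

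Counts were fitted in R 4.3.3 with edgeR 4.0.16: filterByExpr (18842 genes, 29 of the 33; Tnnc2, Myl1, Actn3 and Matn1 were dropped), TMM, a robust quasi-likelihood model of all 12 libraries with 1 mean per group, and Benjamini-Hochberg adjustment over all genes at 0.05. CPM are mean ± SD of 3 libraries. Intervals are exact binomial (Clopper-Pearson) at 95%, with a floor of 3 counts over a group. Replicate pairs differed beyond sampling noise (chi-square per degree of freedom 6.66 to 60.2). Named genes were all 33, up to 4 per list by highest CPM, and the 15 genes most like Acta1. Any further gene named was chosen after its values were seen. On simulated counts for KO against WT after OGD (18842 genes), 66% of 2-fold and 94% of 4-fold changes were recovered, and for WT recovery against WT OGD 65% and 83%. Of all calls 5.88% and 3.27% were false. The changed genes were drawn from all genes fitted, all others had equal group means, and no replicates were split. Recovery for the members is therefore not shown. Alternatives were DESeq2 1.42.0, other scaling, no filter, a replicate block, fewer libraries and each library left out.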

Additional observations from a re-analysis of the deposited data

How the results depend on the processing

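In KO against WT after OGD 2 of 29 members were called, beside 7.49% of all genes. With no low-count filter the count was 14, beside 6.02% of all genes. It was 5 without all 3 KO-recovery libraries (9.46%) and 6 in the 6 libraries compared (10.4%). Leaving out each library in turn gave 1 to 5, beside 2.8% to 8.78% of all genes. The highest count came without KO-recovery replicate 2 (7.84%). In WT recovery against WT OGD 9 members were called, beside 56.8% of all genes, and 18 with no filter, beside 31.3%. With single libraries left out the count ran from 8 to 15, beside 48.3% to 58.2% of all genes. It was again highest without KO-recovery replicate 2 (55.6%). With no filter edgeR gave adjusted p such as 6.84e-153 for Col3a1 in groups of 3 libraries, so those counts carry less weight. The median log2 fold change of KO over WT after recovery, 1.56, turned to -0.54 without KO-recovery replicates 1 and 3, over all members that fit kept, and was 1.25 to 2.19 with single libraries left out. The cause of these changes was not tested. Replicate numbers did not pair the libraries: correlations of same-numbered deviations were -0.111, -0.179 and 0.186 in the first comparison and -0.0889, -0.00485 and -0.0742 in the second. With the replicate block the counts of calls were 2 and 9 (beside 6.26% and 54.5% of all genes). DESeq2 called 3 and 11 (9.28% and 43.2%). Total counts without a factor gave 3 and 9 (8.4% and 53.5%), and relative log expression factors 2 and 9 (7.22% and 56.6%). Genes under about 10 counts per library, which include most muscle genes outside KO-recovery, are limited by depth.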
